A study of Mus musculus with 6 samples.

Results

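The TGF-beta, activin and BMP pathway was followed through 39 genes, all of which were found among the 36528 gene models of each file by joining their gene IDs to RefSeq symbols. They were chosen by role as ligands, receptors, SMAD proteins and antagonists, with the ID genes left out. These genes and the further lists below were chosen with earlier results of these data known. Of the 39, 38 passed the count filter and were tested, and Bmp5 did not. PolyA RNA came from primary melanocytes, the pigment cells, of mouse skin in 6 libraries, 3 labelled BAP1 KO (knockout of Bap1, a nuclear deubiquitinase) and 3 labelled WT (wild type). The Bap1 allele, the way it was deleted, the strain, age and number of animals, and whether the libraries came from separate cultures are not stated in the sources used here. The p-values therefore measure the spread between these libraries, which may be technical. Libraries held 33987690 to 43773769 reads counted to genes, and levels are given as TMM-scaled CPM, counts scaled to library size with a correction for library composition.

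Bap1 was read at 73.6, 77.3 and 72.5 CPM in BAP1 KO-labelled libraries and at 55.7, 55.6 and 55.8 CPM in WT-labelled ones. The targeted gene was thus not lower with the BAP1 KO label but was called higher, with no overlap (1.34-fold, log2 0.42, SE 0.042, edgeR adjusted p = 3.89e-06). Each count covers the whole gene model, so loss of single exons could pass unseen. Every direction below therefore rests on the labels alone. Melanocyte markers were present in all 6 libraries but unequally: 12 markers summed to 63559.8 to 64383 CPM with the BAP1 KO label and 6716 to 6794 CPM with the WT label. All 12 were higher, and Tyrp1 and Dct weighed most in the sum, averaging 32809 and 16089 CPM with the BAP1 KO label. The 12 keratinocyte markers summed to 565 to 588 CPM with the BAP1 KO label and 7161 to 7213 CPM with the WT label, with 11 of 11 tested lower. The 12 fibroblast markers summed to 72.4 to 77.3 and 1013 to 1041 CPM in the same order, with 10 lower, 1 higher, and Lum, Mfap5 and Fap under 1 CPM in every library. Fbln2 and Postn weighed most in that sum, averaging 562 and 353 CPM with the WT label. The 1 higher was Pdgfrb, averaging 20.1 CPM with the BAP1 KO label and 9.30 CPM with the WT label. In bulk RNA, fewer cells of a type and less RNA per cell cannot be told apart, and the part of these markers in the results below was not tested.

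TGF-beta, activins and bone morphogenetic proteins (BMPs) are related dimeric ligands that bring a type II receptor kinase together with a type I receptor kinase. TGF-beta and activin receptors phosphorylate SMAD2 and SMAD3, BMP receptors phosphorylate SMAD1, SMAD5 and SMAD9, and both sets enter the nucleus with SMAD4. TGF-beta is secreted in a latent form that is stored in the matrix and must be activated. In skin, TGF-beta restrains the growth of keratinocytes and lowers pigment gene expression in melanocytes.

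The windows around an annotated start of 5 genes are printed as examples of each outcome described below, Inhba, Tgfb2 and Smad3 lower, Tgfb1 not called and Smad9 higher. Inhba fell and Smad9 rose the most of the 38 genes tested. Each runs 5′ to 3′ from 250 bases before to 50 bases after the start, from RefSeq on GRCm38.p6; 27 of the 39 genes had a window. Those of Inhba and Tgfb2 lie inside the spans of their genes, each of which has a start further upstream. Capitals mark matches on either strand to the TATA box TATAAA, the E-box CACGTG that MITF and related factors bind, the GC box GGGCGG, the SMAD element CAGACA and the GC-rich SMAD element GGCGCC. The last can share letters with the GC box.
Inhba (chr13:16011601-16011900, plus strand): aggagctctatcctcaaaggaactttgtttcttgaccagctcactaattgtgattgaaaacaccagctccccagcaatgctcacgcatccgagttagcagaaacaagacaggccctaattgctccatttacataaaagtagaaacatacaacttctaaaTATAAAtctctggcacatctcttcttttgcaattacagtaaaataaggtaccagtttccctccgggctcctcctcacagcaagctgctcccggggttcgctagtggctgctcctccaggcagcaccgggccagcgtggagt
Tgfb1 (chr7:25686752-25687051, plus strand): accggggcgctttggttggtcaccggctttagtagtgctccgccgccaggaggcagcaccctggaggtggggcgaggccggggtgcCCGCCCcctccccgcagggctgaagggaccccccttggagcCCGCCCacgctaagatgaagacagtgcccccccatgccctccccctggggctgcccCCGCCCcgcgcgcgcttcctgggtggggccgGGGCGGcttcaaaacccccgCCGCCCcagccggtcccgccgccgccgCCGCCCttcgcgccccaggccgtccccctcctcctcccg
Tgfb2 (chr1:186705940-186706239, minus strand): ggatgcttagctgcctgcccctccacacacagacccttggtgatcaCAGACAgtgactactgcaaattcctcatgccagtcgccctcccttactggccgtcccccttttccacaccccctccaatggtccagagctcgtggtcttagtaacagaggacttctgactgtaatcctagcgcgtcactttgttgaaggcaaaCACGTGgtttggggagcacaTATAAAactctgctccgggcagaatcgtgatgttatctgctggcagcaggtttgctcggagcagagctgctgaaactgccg
Smad3 (chr9:63757945-63758244, minus strand): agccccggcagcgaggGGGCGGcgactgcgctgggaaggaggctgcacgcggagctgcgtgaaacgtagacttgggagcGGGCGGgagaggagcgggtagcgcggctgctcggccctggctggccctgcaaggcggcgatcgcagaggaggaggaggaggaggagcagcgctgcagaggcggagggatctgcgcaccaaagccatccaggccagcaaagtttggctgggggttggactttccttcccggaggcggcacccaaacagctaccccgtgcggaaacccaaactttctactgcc
Smad9 (chr3:54755332-54755631, plus strand): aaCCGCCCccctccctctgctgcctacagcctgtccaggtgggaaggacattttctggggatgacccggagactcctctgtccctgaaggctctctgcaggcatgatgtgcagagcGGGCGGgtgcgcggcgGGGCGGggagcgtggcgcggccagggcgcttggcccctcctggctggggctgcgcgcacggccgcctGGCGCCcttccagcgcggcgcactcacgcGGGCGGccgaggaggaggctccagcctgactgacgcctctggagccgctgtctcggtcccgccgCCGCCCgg
The Tgfb1 window held 6 GC boxes and was 77.0% G or C, and the Smad9 window held 5 GC boxes and 1 GC-rich SMAD element. The Tgfb2 window held 1 TATA box, 1 E-box and 1 CAGACA, and that of Inhba, at 47.7% G or C, 1 TATA box. Over the 27 genes, GGGCGG was found in 20, GGCGCC in 8, CAGACA in 7, TATAAA in 4 and CACGTG in 4. Among all 32851 windows of this length these letters occurred in 35.7%, 11.9%, 21.0%, 13.6% and 7.15%. The 4 genes with TATAAA were Bmpr1b, Fstl3, Inhba and Tgfb2, and those with CACGTG were Acvr1b, Bmp4, Bmp6 and Tgfb2. TGANTCA, the AP-1 site, was in 0 of the 27 windows and in 7.81% of all. A match is a description of letters, not a site in use.

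Genes for secreted proteins of the pathway were lower for the most part in BAP1 KO-labelled libraries. Those for receptors and SMADs went both ways, at shares near those of all genes. Of 38 genes tested, 8 were higher and 24 lower at an edgeR adjusted p under 0.05, and 6 did not pass. Among all 17121 genes tested the called share was 81.5%, with 39.4% higher and 42.1% lower, so a call by itself says little here. The 8 higher genes were 21.1% and the 24 lower genes 63.2% of those tested. Differences over 2-fold were called for 4 higher genes (10.5%) and 20 lower genes (52.6%), against 13.9% and 22.7% of all genes. The median log2 difference was -1.07 over the 38 genes and -0.03 over all genes tested. The libraries of each label did not overlap for 32 of the 38, against 82.7% of all genes. Of 18 ligands, latency and processing proteins and antagonists tested, 16 were lower and 2 did not pass (median -2.28). Of 20 receptors, SMADs and SKIL, 8 were higher, 8 lower and 4 did not pass. These shares, 40% higher and 40% lower, are near the 39.4% and 42.1% of all genes.

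**Figure D1:**
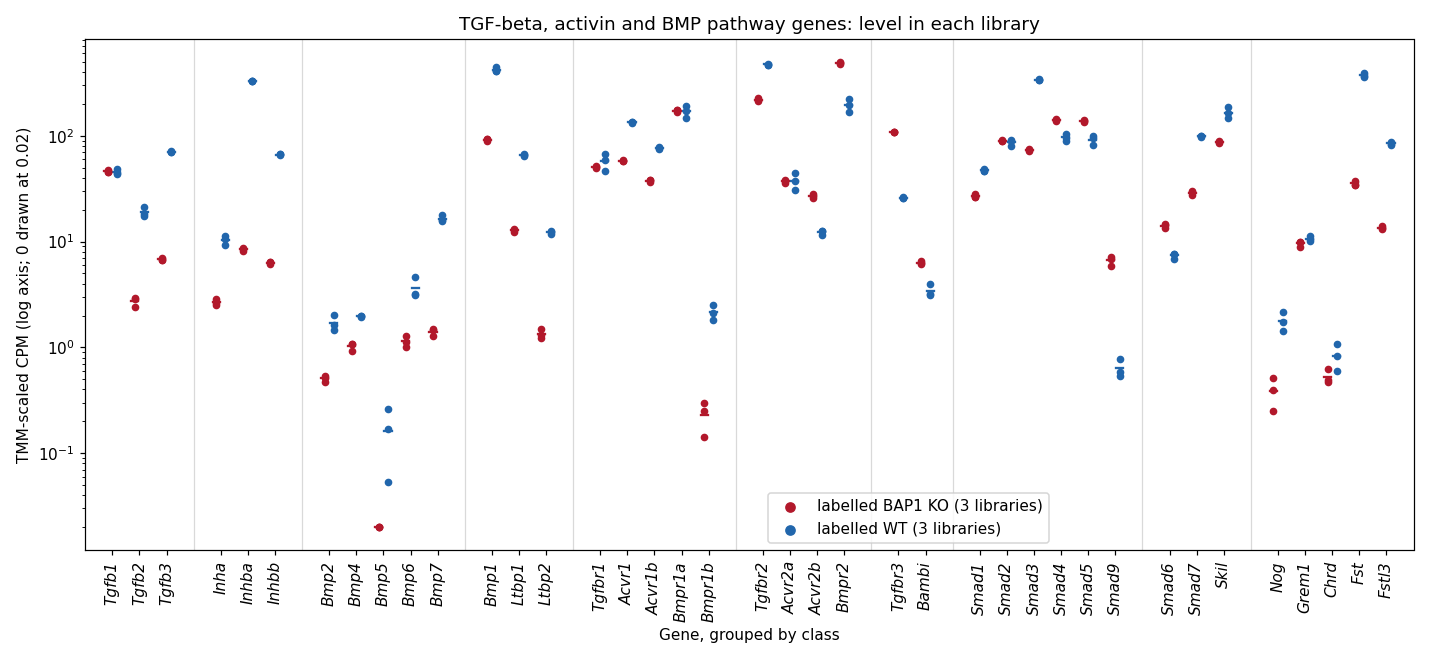
Level of each of the 39 genes in every library, in TMM-scaled CPM on a log axis, with 3 libraries labelled BAP1 KO left of 3 labelled WT and a bar at each mean. Inhba and Fst show the wide gaps among genes for secreted proteins, at 8.20 to 8.64 against 326 to 331.0 CPM for Inhba. Tgfb1, Bmpr1a and Smad2 overlap.

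Of the 3 TGF-beta ligands, Tgfb2 and Tgfb3 were lower with the BAP1 KO label and Tgfb1 was not called. Tgfb1, the isoform most cells make, stood at 45.7, 47.3 and 45.6 CPM in BAP1 KO-labelled libraries and 44.3, 43.4 and 48.1 CPM in WT-labelled ones, and the groups overlapped (log2 0.03, SE 0.051, adjusted p = 0.601). Without WT replicate 3 it was called higher by 0.11 (edgeR adjusted p = 0.0363). Tgfb3 (gene ID 21809, chromosome 12, 86056743 to 86079041 on GRCm38) reached 6.74, 7.06 and 6.66 CPM with the BAP1 KO label and 70.2, 70.2 and 72.5 CPM with the WT label. Each library labelled BAP1 KO lay far below each labelled WT, 10.4-fold lower on average (log2 -3.38, SE 0.052, adjusted p = 9.70e-13); 12.4% of its exon bases overlap other transcripts, Gm48008 most of all, and reads were not separated by strand. Tgfb2, which with Tgfb3 acts widely in development, had 2.43, 2.91 and 2.84 CPM with the BAP1 KO label, against 17.5, 21.1 and 18.4 CPM with the WT label (log2 -2.80, SE 0.10, adjusted p = 8.16e-10). These groups did not overlap either. In the deposited RPKM, which correct for gene length and so allow genes to be set side by side, Tgfb1 made up 90.1% ± 0.154 of the 3 ligands with the BAP1 KO label and 47.5% ± 1.15 with the WT label. The share of Tgfb3 was 8.22% ± 0.0797 with the BAP1 KO label and 46.1% ± 0.636 with the WT label (SD, n = 3 each; exact permutation test, two-sided, p = 0.1 for each share, the smallest that 3 against 3 allows). The summed ligand level was 23.1 ± 0.481 RPKM with the BAP1 KO label and 42.0 ± 1.87 RPKM with the WT label. The shares depend on the gene length used: with CPM over GENCODE exon length, Tgfb1 was 78.7% with the BAP1 KO label and 27.0% with the WT label. Tgfb3 was 17.3% and 63.1% in that order, so with that length it exceeded Tgfb1 in the WT-labelled libraries.

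Inhba, an activin subunit, differed most of all the genes followed. It (gene ID 16323, chromosome 13, 16004256 to 16031609) encodes the chain that pairs with itself as activin A and had 8.20, 8.58 and 8.64 CPM in BAP1 KO-labelled libraries and 326, 331 and 329 CPM in WT-labelled ones. Libraries of 1 label lay close together and far from those of the other, and the level was 38.8-fold lower with the BAP1 KO label (log2 -5.28, SE 0.046, adjusted p = 5.91e-14). Inhbb, the subunit of activin B, stood at 6.42, 6.36 and 6.19 CPM with the BAP1 KO label and 65.3, 67.2 and 67.0 CPM with the WT label (log2 -3.39, SE 0.051, adjusted p = 8.44e-13). Inha, which turns a beta subunit into the antagonist inhibin, had 2.51, 2.88 and 2.62 CPM with the BAP1 KO label and 10.7, 9.33 and 11.3 CPM with the WT label (log2 -1.96, SE 0.10, adjusted p = 1.83e-08). All 3 subunits were thus lower with no overlap, Inha by the least. Per length, the 3 subunits summed to 6.30 ± 0.171 RPKM with the BAP1 KO label and 142 ± 2.38 RPKM with the WT label. Inhba was 50.5% ± 0.914 of that sum with the BAP1 KO label and 85.2% ± 0.397 with the WT label, and Inha 27.3% ± 1.19 and 4.64% ± 0.445 in the same order (exact permutation test, two-sided, p = 0.1 for both, the smallest possible). With CPM over GENCODE exon length, Inhba was 28.7% with the BAP1 KO label and 69.4% with the WT label, and Inha 39.1% and 9.54%, which made Inha the largest of the 3 with the BAP1 KO label. The keratinocyte markers were also lower, at 565 to 588 CPM with the BAP1 KO label and 7161 to 7213 CPM with the WT label.

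The 4 BMP ligands tested were lower with the BAP1 KO label, and Bmp7 was the most abundant of them with the WT label. Bmp7, a ligand needed for kidney and eye development, had 1.46, 1.48 and 1.28 CPM in BAP1 KO-labelled libraries and 15.97, 15.5 and 17.7 CPM in WT-labelled ones (11.6-fold lower, log2 -3.54, SE 0.10, adjusted p = 9.02e-11). Bmp6 had 1.13, 1.29 and 1.004 CPM with the BAP1 KO label and 3.22, 3.14 and 4.66 CPM with the WT label (log2 -1.68, SE 0.19, adjusted p = 1.13e-05). Bmp2, which like Bmp4 drives bone formation, had 0.512, 0.539 and 0.474 CPM with the BAP1 KO label and 1.47, 1.62 and 2.04 CPM with the WT label (log2 -1.75, SE 0.20, adjusted p = 1.06e-05). None of these 3 showed overlap between labels, and WT replicate 3 was the highest library for each. Bmp4 differed least, with 0.917, 1.08 and 1.09 CPM with the BAP1 KO label and 1.98, 1.94 and 1.96 CPM with the WT label (log2 -0.93, SE 0.14, adjusted p = 1.14e-04). Bmp5 was listed at 0 reads in all libraries labelled BAP1 KO and at 9, 2 and 7 reads in those labelled WT. Taking 3 reads over the libraries labelled BAP1 KO as the floor, this is 6.11-fold lower. That value takes the 18 reads with the WT label as exact, so it is no lower bound on the difference. For Bmp5, 46.7% of exon bases overlap Gm26903 and other transcripts. Summed per length, the 5 BMP ligands reached 1.35 ± 0.0914 RPKM with the BAP1 KO label and 6.80 ± 0.784 RPKM with the WT label, of which Bmp7 made up 26.7% ± 1.45 and 60.8% ± 1.86 in that order.

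Bmp1, Ltbp1 and Ltbp2, grouped here as matrix-bound latency and processing genes, were also lower with the BAP1 KO label. Bmp1, a protease that cleaves procollagen and the BMP antagonist chordin and is no BMP itself, had 92.4, 93.5 and 89.1 CPM with the BAP1 KO label and 412, 409 and 444 CPM with the WT label (4.60-fold lower, log2 -2.20, SE 0.044, adjusted p = 6.14e-12). Ltbp1, which tethers latent TGF-beta to the matrix, had 13.3, 12.9 and 12.3 CPM with the BAP1 KO label and 65.7, 63.9 and 67.7 CPM with the WT label (log2 -2.36, SE 0.051, adjusted p = 1.10e-11). Its relative Ltbp2, a protein of elastic fibres, had 1.21, 1.31 and 1.48 CPM with the BAP1 KO label and 11.7, 12.6 and 12.3 CPM with the WT label (log2 -3.20, SE 0.098, adjusted p = 1.73e-10). For these 3 genes the lowest library labelled WT was several times the highest labelled BAP1 KO. The fibroblast markers, at 72.4 to 77.3 CPM with the BAP1 KO label and 1013 to 1041 CPM with the WT label, moved the same way.

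**Figure D2:**
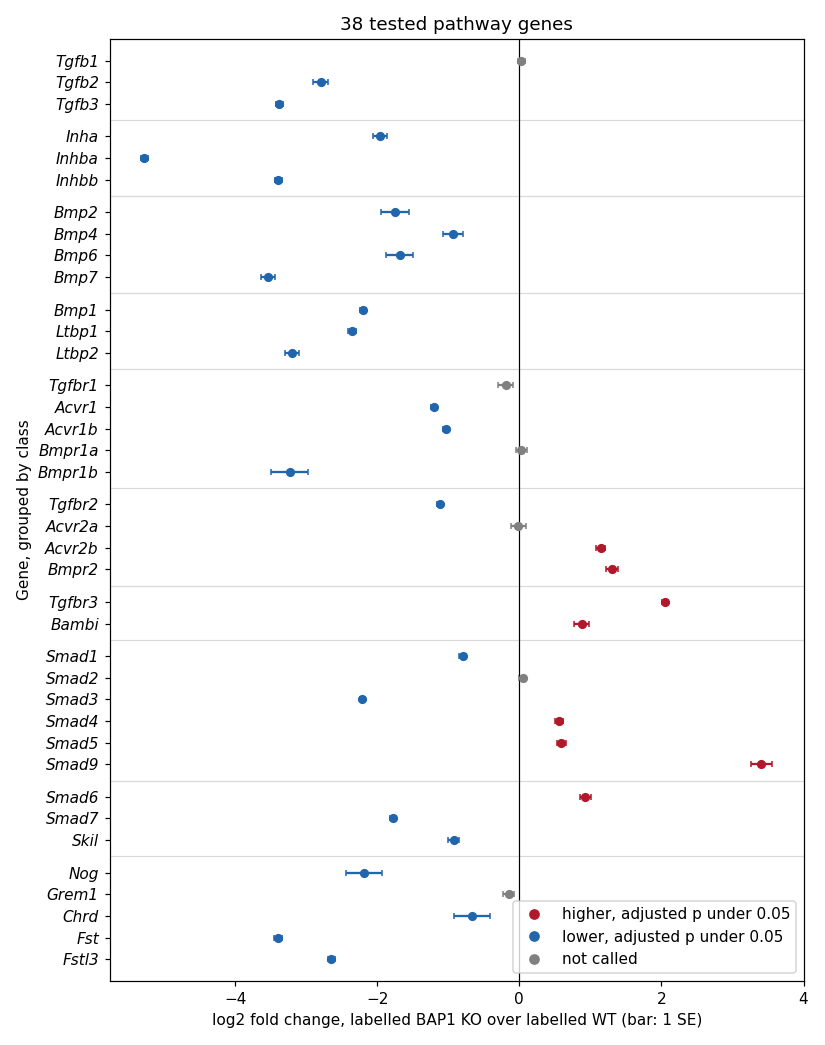
The log2 fold change of the 38 genes tested, labelled BAP1 KO over labelled WT, with 1 SE as a bar, grouped by class and coloured by call. Ligands, latency genes and antagonists lie near or left of 0, down to -5.28 for Inhba, while receptors and SMADs lie on both sides, up to 3.41 for Smad9.

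Among the 5 type I receptors, 3 were lower with the BAP1 KO label and Tgfbr1 and Bmpr1a were not called. Acvr1, a receptor for activins and BMPs, stood at 58.7, 58.1 and 58.0 CPM with the BAP1 KO label and 136, 135 and 132 CPM with the WT label (log2 -1.21, SE 0.038, adjusted p = 2.20e-10). Acvr1b, the main type I receptor for activin, stood at 37.99, 38.2 and 36.4 CPM with the BAP1 KO label and 74.7, 77.5 and 77.2 CPM with the WT label (log2 -1.03, SE 0.043, adjusted p = 2.28e-09). Acvr1 was 2.31-fold and Acvr1b 2.04-fold lower, and neither showed overlap between labels. Bmpr1b was near the lower end of what these libraries can measure, at 0.297, 0.141 and 0.251 CPM with the BAP1 KO label and 2.10, 2.53 and 1.82 CPM with the WT label (log2 -3.23, SE 0.26, adjusted p = 5.71e-07), or 26 reads in all with the BAP1 KO label and 243 with the WT label. Tgfbr1, the TGF-beta type I receptor, had 50.9, 49.3 and 51.4 CPM with the BAP1 KO label and 59.0, 67.9 and 46.7 CPM with the WT label (log2 -0.19, SE 0.11, adjusted p = 0.116). WT replicate 3 alone fell below the libraries labelled BAP1 KO, and without it Tgfbr1 was called lower at -0.30 (edgeR adjusted p = 3.27e-06). With library totals in place of TMM it was also called, at -0.25 (edgeR adjusted p = 0.0346). Bmpr1a, a BMP receptor, had 177, 166 and 177 CPM with the BAP1 KO label and 171, 191 and 148 CPM with the WT label (log2 0.03, SE 0.078, adjusted p = 0.773). Its libraries overlapped, and without WT replicate 2 it was called higher by 0.13 (edgeR adjusted p = 0.0482). Per length, Bmpr1a was 47.5% ± 0.818 of the 5 type I receptors with the BAP1 KO label and 30.8% ± 2.04 with the WT label.

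Type II receptors changed in opposite directions. Tgfbr2, the TGF-beta type II receptor, had 214, 225 and 215 CPM in BAP1 KO-labelled libraries and 470.4, 481 and 471 CPM in WT-labelled ones (2.17-fold lower, log2 -1.12, SE 0.036, adjusted p = 2.40e-10). Bmpr2 (gene ID 12168, chromosome 1, 59764279 to 59878081), which binds BMPs, had 496, 485 and 474 CPM with the BAP1 KO label and 197, 225 and 168 CPM with the WT label (2.47-fold higher, log2 1.30, SE 0.084, adjusted p = 9.32e-08). Acvr2b, an activin receptor, had 25.7, 28.4 and 26.8 CPM with the BAP1 KO label and 12.6, 11.5 and 12.5 CPM with the WT label (2.21-fold higher, log2 1.14, SE 0.063, adjusted p = 2.58e-08). Acvr2a, another type II receptor that binds activin, had 37.9, 35.7 and 37.3 CPM with the BAP1 KO label. With the WT label it had 37.1, 44.1 and 31.0 CPM, a range that held the libraries of the BAP1 KO label (log2 -0.02, SE 0.10, adjusted p = 0.889). In RPKM, Tgfbr2 was 46.4% ± 0.905 of the 4 type II receptors with the BAP1 KO label and 79.7% ± 2.17 with the WT label, and Bmpr2 44.5% ± 0.817 and 14.2% ± 1.51 in that order. The ratio of Bmpr2 to Tgfbr2 in RPKM was 0.960 ± 0.0363 with the BAP1 KO label and 0.179 ± 0.0238 with the WT label (SD, n = 3 each, exact permutation test, two-sided, p = 0.1, the smallest possible). With CPM over GENCODE exon length it was 1.01 with the BAP1 KO label and 0.189 with the WT label. Which of these genes was larger with the BAP1 KO label thus turned with the length used.

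The co-receptor and the pseudoreceptor were both higher with the BAP1 KO label. Tgfbr3 (gene ID 21814, chromosome 5, 107106567 to 107289629), or betaglycan, presents TGF-beta2 to the signalling receptors and helps inhibin to block activin. It had 108, 108 and 108 CPM in BAP1 KO-labelled libraries and 25.7, 26.1 and 26.1 CPM in WT-labelled ones (4.15-fold higher, log2 2.05, SE 0.040, adjusted p = 5.10e-12). Bambi, which resembles a type I receptor but lacks the kinase and dampens signalling, had 6.61, 6.24 and 6.16 CPM with the BAP1 KO label and 3.22, 3.11 and 3.98 CPM with the WT label (log2 0.88, SE 0.11, adjusted p = 2.02e-05). Neither gene showed overlap between labels. Tgfbr3 per Tgfbr2 in RPKM was 0.391 ± 0.01001 with the BAP1 KO label and 0.0433 ± 0.000562 with the WT label (SD, n = 3 each), and 0.618 and 0.0685 in that order with CPM over GENCODE exon length. The melanocyte markers were also higher, at 63559.8 to 64383 CPM with the BAP1 KO label and 6716 to 6794 CPM with the WT label.

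The 2 SMADs of the TGF-beta and activin branch behaved differently. Smad3 (gene ID 17127, chromosome 9, 63646766 to 63757994) had 74.5, 73.8 and 71.6 CPM in BAP1 KO-labelled libraries and 338, 337 and 344 CPM in WT-labelled ones (4.63-fold lower, log2 -2.21, SE 0.037, adjusted p = 1.67e-12). Smad2 had 88.7, 88.3 and 91.0 CPM with the BAP1 KO label and 90.4, 88.6 and 80.2 CPM with the WT label, with overlap (log2 0.05, SE 0.050, adjusted p = 0.389). Smad2 made up 43.6% ± 0.911 of their summed RPKM with the BAP1 KO label and 13.9% ± 0.884 with the WT label, and the sum was 20.9 ± 0.189 RPKM with the BAP1 KO label and 62.2 ± 1.12 RPKM with the WT label. SMAD4, the partner shared by both branches, is encoded by Smad4, which had 145, 141 and 138 CPM with the BAP1 KO label and 95.4, 105 and 88.9 CPM with the WT label (log2 0.55, SE 0.057, adjusted p = 4.88e-06). Each library labelled BAP1 KO was above each labelled WT for Smad4.

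The 3 SMADs of the BMP branch parted, with Smad1 lower and Smad5 and Smad9 higher with the BAP1 KO label. Smad1 had 28.3, 26.4 and 26.5 CPM with the BAP1 KO label and 46.3, 48.3 and 46.3 CPM with the WT label (log2 -0.79, SE 0.049, adjusted p = 6.24e-08). Smad5 had 136, 141 and 137 CPM with the BAP1 KO label and 94.5, 99.0 and 82.3 CPM with the WT label (log2 0.59, SE 0.062, adjusted p = 6.25e-06). Smad9 (gene ID 55994, chromosome 3, 54755455 to 54801662), which encodes SMAD8, had 7.17, 6.89 and 5.91 CPM with the BAP1 KO label and 0.777, 0.585 and 0.534 CPM with the WT label (10.6-fold higher, log2 3.41, SE 0.15, adjusted p = 4.47e-09). None of the 3 showed overlap, and Smad9 had the largest rise of all genes followed, with 71 reads over the libraries labelled WT. Per length, Smad1 was 29.6% ± 1.06 of the 3 with the BAP1 KO label and 53.6% ± 1.996 with the WT label, Smad5 66.3% ± 1.23 and 46.0% ± 1.96, and Smad9 4.15% ± 0.358 and 0.411% ± 0.0792. With CPM over GENCODE exon length, Smad1 was 17.9% with the BAP1 KO label and 37.6% with the WT label, and Smad5 77.0% and 61.8%, so the order of these 2 with the WT label turned with the length used. Their sum in the deposited values came to 26.6 ± 0.436 RPKM with the BAP1 KO label and 24.9 ± 0.999 RPKM with the WT label.

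**Figure D3:**
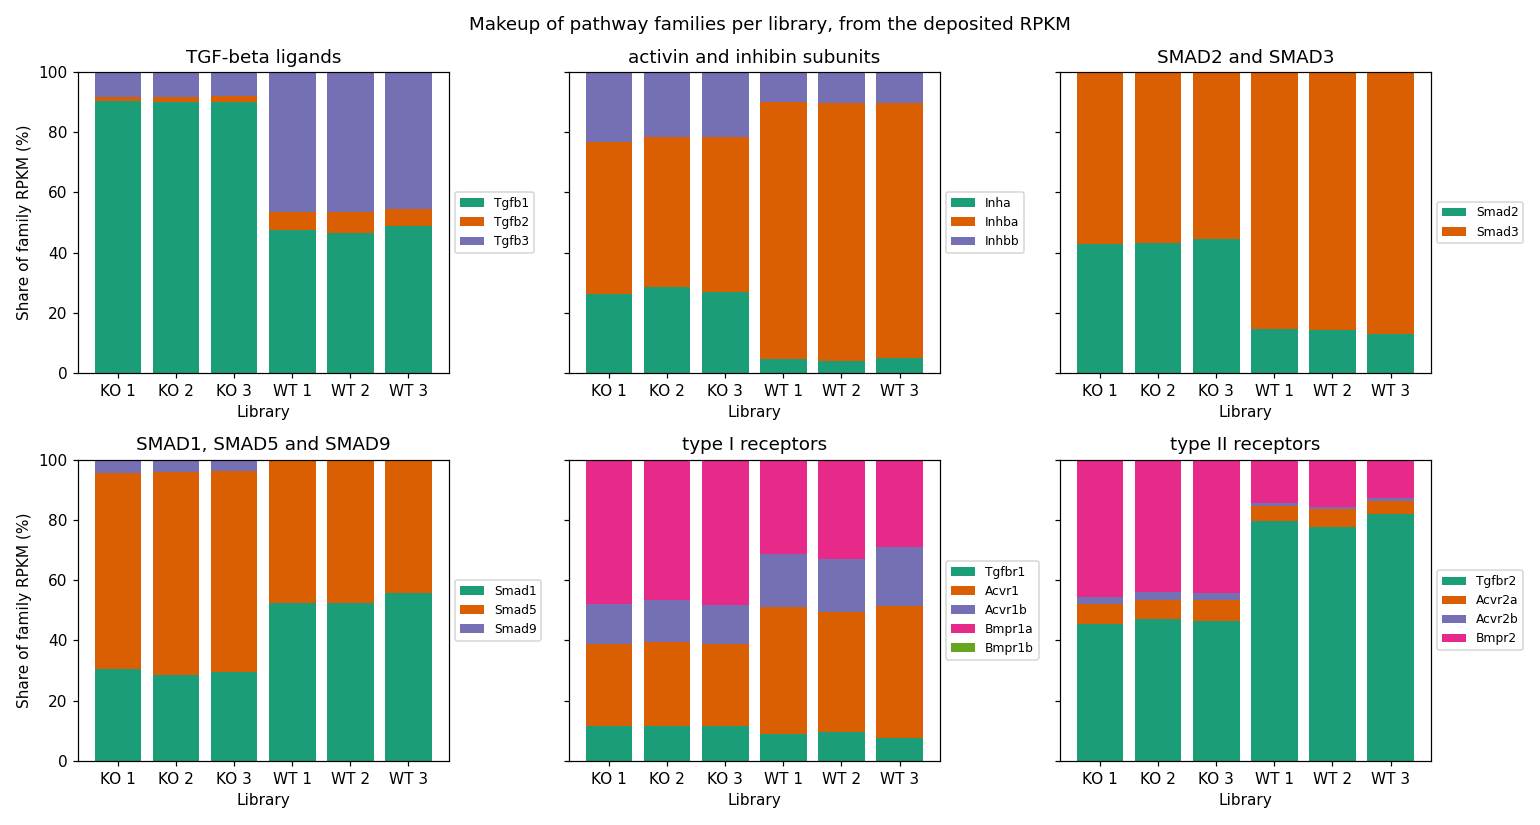
Share of each gene in the summed deposited RPKM of its family, per library, with the 3 libraries labelled BAP1 KO left of the 3 labelled WT. Tgfb1, Smad2, Smad5 and Bmpr2 hold larger shares in every library labelled BAP1 KO, as with 89.9% to 90.2% against 46.4% to 48.7% for Tgfb1.

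The inhibitors inside the cell did not move together. Smad7, which blocks TGF-beta receptors and is itself induced by TGF-beta, had 27.8, 29.5 and 29.9 CPM in BAP1 KO-labelled libraries and 97.8, 99.9 and 100.5 CPM in WT-labelled ones (3.42-fold lower, log2 -1.77, SE 0.045, adjusted p = 3.39e-11). Skil, a nuclear repressor of SMAD complexes that TGF-beta also induces, had 86.8, 86.1 and 88.9 CPM with the BAP1 KO label and 163, 188 and 147 CPM with the WT label (log2 -0.92, SE 0.076, adjusted p = 7.36e-07). Smad6, which mainly restrains BMP signalling, had 14.6, 14.4 and 13.5 CPM with the BAP1 KO label and 6.90, 7.69 and 7.66 CPM with the WT label (1.90-fold higher, log2 0.93, SE 0.073, adjusted p = 4.92e-07). For each of the 3 the libraries of each label stayed apart.

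Genes for secreted antagonists of activin were lower together with those for the activin subunits. Fst (gene ID 14313, chromosome 13, 114452262 to 114458989) encodes follistatin, which binds activins almost irreversibly, and had 34.5, 34.1 and 37.6 CPM in BAP1 KO-labelled libraries and 365, 393 and 361 CPM in WT-labelled ones (10.6-fold lower, log2 -3.40, SE 0.054, adjusted p = 1.17e-12). Fstl3, a relative of follistatin, had 14.1, 13.4 and 13.1 CPM with the BAP1 KO label and 84.3, 82.1 and 87.9 CPM with the WT label (6.26-fold lower, log2 -2.65, SE 0.052, adjusted p = 5.00e-12). Its value is uncertain, since 47.3% of its exon bases overlap other transcripts, mainly Prss57, which was listed at 9.62 ± 0.353 CPM with the BAP1 KO label and 55.2 ± 2.01 CPM with the WT label (SD, n = 3 each). Fst was lower by less than Inhba, so Fst per Inhba in RPKM was 3.62 ± 0.162 with the BAP1 KO label and 0.984 ± 0.0408 with the WT label (SD, n = 3 each; exact permutation test, two-sided, p = 0.1, the smallest possible). With CPM over GENCODE exon length the ratio was 5.81 with the BAP1 KO label and 1.58 with the WT label. The 5 antagonists summed to 22.04 ± 0.548 RPKM with the BAP1 KO label and 157 ± 2.57 RPKM with the WT label, of which Fst was 52.2% ± 1.41 and 75.8% ± 1.37.

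The BMP antagonists were scarce or little changed. Grem1, encoding gremlin, had 8.95, 9.94 and 10.01 CPM with the BAP1 KO label and 10.2, 10.5 and 11.3 CPM with the WT label and was not called, though no library labelled BAP1 KO reached the lowest labelled WT (log2 -0.15, SE 0.076, adjusted p = 0.0918). With library totals in place of TMM it was called lower, at -0.21 (edgeR adjusted p = 0.0276). Nog, encoding noggin, had 0.512, 0.399 and 0.251 CPM with the BAP1 KO label and 1.44, 2.15 and 1.72 CPM with the WT label (log2 -2.18, SE 0.25, adjusted p = 1.36e-05). Chrd, encoding chordin, stayed near or under 1 CPM, at 0.620, 0.492 and 0.474 CPM with the BAP1 KO label and 0.604, 0.824 and 1.07 CPM with the WT label, with overlap (log2 -0.67, SE 0.25, adjusted p = 0.0313). That call was lost in DESeq2 (adjusted p = 0.112), without BAP1 KO replicate 2 (edgeR adjusted p = 0.0997), without BAP1 KO replicate 3 (0.0973) and without WT replicate 3 (0.182).

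Among 76 further genes of the superfamily, listed by role, 56 were tested, of which 20 were higher and 28 lower (35.7% and 50.0%, against 39.4% and 42.1% of all genes; median log2 -0.27). Those over 2-fold were 8 higher (14.3%, against 13.9% of all genes) and 20 lower (35.7%, against 22.7%). The higher shares were thus near those of all genes. The genes for storing and activating latent TGF-beta leaned lower, 9 of 10 tested, with Nrros alone not called. Itgb6, an epithelial integrin subunit that activates latent TGF-beta, had 12.0, 11.3 and 11.9 CPM with the BAP1 KO label and 249, 255 and 227 CPM with the WT label (log2 -4.38, SE 0.059, adjusted p = 4.39e-13). Lrrc32, or GARP, which holds latent TGF-beta on the cell surface, had 0.949 ± 0.205 CPM with the BAP1 KO label and 11.3 ± 0.180 CPM with the WT label (SD, n = 3 each; log2 -3.56, SE 0.12, adjusted p = 4.20e-10). The keratinocyte markers, at 565 to 588 CPM with the BAP1 KO label and 7161 to 7213 CPM with the WT label, moved with Itgb6.

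Of 11 other ligands tested, 4 were higher and 6 lower (36.4% and 54.5%, against 39.4% and 42.1% of all genes). Gdf6 and Bmp8a, both BMP-like ligands, were lower at -3.86 (SE 0.26) and -3.18 (SE 0.21), at 2.05 and 4.40 CPM with the WT label. Gdf1 was higher by 2.96 (SE 0.057), but all of its exon bases lie within Cers1, a ceramide synthase gene that was listed at 65.5, 65.9 and 60.8 CPM with the BAP1 KO label and 7.97, 8.19 and 7.88 CPM with the WT label. The counts therefore cannot tell Gdf1 from Cers1. Of 19 intracellular regulators, 10 were higher and 5 lower, and the called share of 78.9% was near the 81.5% of all genes. Tgif1, a repressor of SMAD target genes, was the largest of these at 24.7 ± 0.995 CPM with the BAP1 KO label and 192 ± 1.46 CPM with the WT label (7.76-fold lower, log2 -2.96, SE 0.045, adjusted p = 8.37e-13). Receptors and co-receptors split with 4 higher and 2 lower of 7, and antagonists with 2 higher and 6 lower of 9, called shares of 85.7% and 88.9% that are also near that of all genes.

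Genes known to be induced by TGF-beta were lower with the BAP1 KO label, with 1 exception. Of 30 tested, 29 were lower (96.7%, against 42.1% of all genes) and 1, Loxl2, was higher (0.27, SE 0.039), with a median of -2.14; 23 were lower by more than 2-fold (76.7%, against 22.7% of all genes). In Loxl2, 45.0% of the 50-base stretches of its transcripts are shared with other genes, Gm21451 most of all. The same limit holds for Tagln, which was lower (-1.51, SE 0.040). In Tagln, 67.9% of exon bases overlap other transcripts and 58.3% of 50-base stretches are shared, with Gm48529 most of all. The list holds 3 of the genes described above, Ltbp2, Skil and Smad7, and 5 of the fibroblast and mural markers. Without those 5 markers, 24 of 25 were lower (median -1.72). Ccn2, or connective tissue growth factor, had 54.2, 55.2 and 55.7 CPM with the BAP1 KO label and 2478, 2508 and 2509 CPM with the WT label (45.4-fold lower, log2 -5.50, SE 0.037, adjusted p = 3.51e-14), and 23.2% of its exon bases overlap Gm15270, itself under 0.5 CPM in every library. Cdkn2b, the CDK inhibitor p15, was lower at -4.99 (SE 0.060), and Thbs1, a matrix protein that can activate latent TGF-beta, at -4.38 (SE 0.035). Postn, Col1a1 and Col1a2, which are also on the fibroblast list, were lower at -4.86, -4.15 and -4.00. The list was drawn up with earlier results of these data known, so its shares describe these genes and are no independent test. Many of these genes respond to other signals as well, and SMAD activity was not measured.

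**Figure D4:**
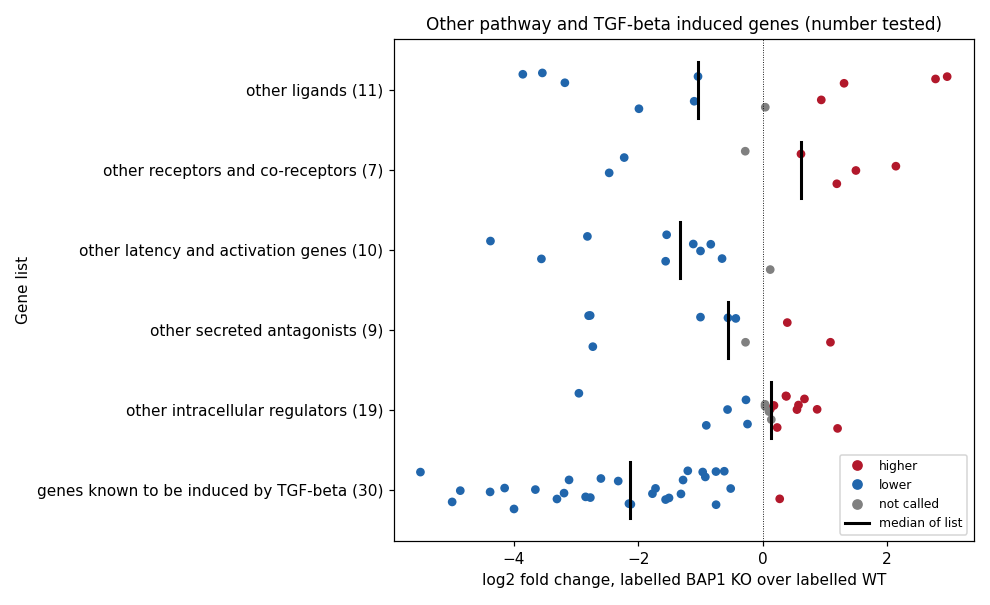
Log2 fold change, labelled BAP1 KO over labelled WT, of 56 other pathway genes by list and of 30 genes known to be induced by TGF-beta, each point a gene coloured by call and each black line the median of its list. The induced genes lie left of 0 apart from Loxl2, with a median of -2.14, while intracellular regulators centre near 0 (median 0.14).

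Other cell types were read as background to these results. The 6 Schwann cell markers reported here summed to 638 to 679 CPM with the BAP1 KO label and 348 to 366 CPM with the WT label, with 4 higher and 2 lower. Among them S100b had 145 ± 8.72 CPM with the BAP1 KO label and 3.07 ± 0.253 CPM with the WT label (SD, n = 3 each; 47.2-fold higher, log2 5.56, SE 0.075, adjusted p = 4.39e-13). The 8 myeloid markers summed to 231 to 239 CPM with the BAP1 KO label and 55.9 to 63.1 CPM with the WT label (5 higher, 3 lower, Ptprc under 1 CPM in every library), and the 8 endothelial, mural and muscle markers to 66.9 to 71.1 and 344 to 372 CPM in the same order (1 higher, 6 lower, Pecam1 and Cdh5 under 1 CPM in every library). A single gene weighed heavily in the myeloid sum and in the endothelial, mural and muscle sum. Lyz2 stood at 177 ± 4.72 CPM with the BAP1 KO label and 22.6 ± 1.12 CPM with the WT label, while Aif1, Adgre1 and Itgam were the 3 myeloid markers that were lower. Acta2, which is also on the list of TGF-beta induced genes, stood at 54.5 ± 2.05 CPM with the BAP1 KO label and 331 ± 14.2 CPM with the WT label.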

How the data were processed

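PolyA RNA of 6 libraries of primary mouse melanocytes was analysed. Per the file headers, the deposited count is the number of reads uniquely aligned to a gene model, and the deposited RPKM is adjusted by a size factor by the authors. Per the submitters' processing notes, GSNAP and GRCm38 were used; the counting tool is not stated in the sources used here. Per the labels' protocols the kit was TruSeq RNA v2, which does not mark strand, with single-end reads. Gene IDs were matched to the RefSeq table of GRCm38.p6 (31049 of 36528, 85.0%), which also gave coordinates.

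Counts were tested with edgeR 4.0.16 in R 4.3.3 (filterByExpr with minimum count 10 and minimum total 15, TMM, glmQLFit and glmQLFTest, no covariate), adjusted by Benjamini-Hochberg over 17121 genes, with calls at 0.05. SE was taken as |log2 fold change| divided by the root of the F statistic. RPKM were used for shares and ratios between genes. GENCODE M21 gave the share of exon bases overlapped by other genes, on both strands, and of 50-base stretches found in other genes. Replicates were numbered in accession order and are not paired. The spread of counts between any 2 libraries of 1 label exceeded sampling noise. Chi-square over its degrees of freedom was 2.01 to 4.10 with the BAP1 KO label and 3.91 to 17.4 with the WT label. On simulated counts of 16812 genes edgeR recovered 62% of 50 genes changed 1.5-fold and 92% of 50 changed 2-fold, with 12 false calls; so few changed genes do not resemble this comparison.

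The members and lists were chosen with earlier results of these data known. Named with values in every library were, per class, up to 4 called genes by size of change and the one with the highest RPKM; of the other lists, up to 6 called genes with at least 2 CPM in the higher group. The remaining genes of the pathway were shown as well. Some markers of another cell type are not reported here. Alternatives were other scalings (DESeq2 size factors, library totals, upper quartile, the authors' factors), DESeq2 1.42.0, limma-voom 3.58.1, no filter, a minimum of 5 CPM in 3 libraries, robust edgeR, an adjusted p under 0.01, glmTreat and leaving out each library.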

Additional observations from a re-analysis of the deposited data

How the results depend on the processing

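The counts of 8 higher and 24 lower pathway genes held within 1.5 times under every scaling, filter and tool run except glmTreat against a log2 fold change of 1. Under glmTreat 4 members were higher and 19 lower, 7 of the further genes were higher and 16 lower, and 0 induced genes were higher (0 also at an unadjusted p under 0.05; 1 in limma-voom and in DESeq2). Leaving out each library gave 8 to 9 higher and 23 to 24 lower members, 18 to 21 higher and 27 to 30 lower further genes, and 1 higher and 29 lower induced genes. Signs turned only for genes that were not called. With library totals, or with at least 5 CPM in 3 libraries, Tgfb1 stood at -0.0322 and -0.0482, Bmpr1a at -0.0348 and -0.0528, and Smad2 at -0.0124 and -0.0295. Acvr2a was 0.0157 with the authors' factors and 0.0201 with no filter. Leaving out single libraries, Bmpr1a ranged from -0.0352 to 0.127 and Acvr2a from -0.107 to 0.131. With CPM over GENCODE exon length in place of the deposited RPKM, the difference in share (BAP1 KO minus WT label, percentage points) was 51.7 for Tgfb1 among its ligands, -40.7 for Inhba, 15.1 for Smad5, 26.4 for Bmpr2 and -19.4 for Fst, each in the same direction as with RPKM, and the cause was not tested. No paired analysis was possible because the labels give no replicate numbers. Genes near or under 1 CPM, such as Chrd and Nog, rest on few reads.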

Other observations

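Several receptor genes varied among the libraries labelled WT more than among those labelled BAP1 KO. Of 23 pathway genes averaging at least 20 CPM, 5 had a coefficient of variation over 10% among libraries labelled WT and 0 among those labelled BAP1 KO, where the highest was 5.36% for Fst. The 5 were Tgfbr1 (18.4%), Acvr2a (17.6%), Bmpr2 (14.4%), Bmpr1a (12.7%) and Skil (12.5%), and in each of them WT replicate 2 was the highest and WT replicate 3 the lowest of the 3. That order was found in 9 of the 23 genes and in 31.5% of the 8063 genes at this level. The share of all genes with a coefficient of variation over 10% was not computed. Spread was also compared over all genes with at least 20 reads in a pair of libraries. Chi-square over its degrees of freedom was 3.91 to 17.4 for pairs labelled WT and 2.01 to 4.10 for pairs labelled BAP1 KO. The widest pairs, at 8.09 and 17.4, both held WT replicate 3. WT replicates 1 and 2 gave 3.91, inside the range of the BAP1 KO label. Chi-square and the coefficient of variation are unlike measures, so whether the wider spread was particular to these genes was not settled. These values were looked up after the data were seen and were not tested.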
